A study of Mus musculus with 38 samples.

Results

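Autophagy, cathepsin and V-ATPase genes were described in neural stem/progenitor cells (NSPCs) from the adult mouse subventricular zone (SVZ), the stem cell niche that lines the lateral ventricles of the brain. The members were all genes whose symbol begins with Atg and a digit, is Cts and a single letter, begins with Atp6v, or is Lamp1, Lamp2, Sqstm1 or Tfeb. These were 61 of the 25965 genes in the RNA table, and all 61 were also in the histone table, where they held 200 of 72923 windows.

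Macroautophagy wraps cytoplasm in a double membrane, the autophagosome, and delivers it to the lysosome. The ATG proteins build that membrane, the V-ATPase pumps protons to acidify the lysosome, and the cathepsins are proteases that work in the acid lumen. Tfeb is a transcription factor for many of these genes, and lysosomal activity has been studied in quiescent and activated neural stem cells and in aging tissue.

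Cells were cultured as neurospheres from the SVZ of young adult mice (3 months) and aged mice (18 months) of the C57BL/6JBabr strain, with no transgene or treatment in either group. Per the study's methods the mice were male, and each of the 3 derivations per age combined tissue from 5 mice and was made on its own day, so that a library is a pool of animals grown for 2 passages and not a measure of cells in the brain. RNA was sequenced from these 6 derivations and from 1 further derivation per age of C57BL/10 mice, which were kept in another facility. Histone H3K4me3 and H3K27me3 were each given as 1 value per age, and DNA methylation was read in 3 libraries per age by oxidative bisulfite sequencing (oxBS, which reads 5-methylcytosine, 5mC) and by bisulfite sequencing (BS, which reads 5mC and 5-hydroxymethylcytosine together).

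The RNA libraries held 16952486 to 41053972 reads in C57BL/6JBabr and 24582963 to 27183304 in C57BL/10. The methylation files held 13616283 to 21389132 calls per oxBS library and 23121086 to 30400033 per BS library. All 8 NSPC markers examined, Nes and Sox2 among them, were detected, with sums of 6218 to 8056 RPM in the C57BL/6JBabr libraries, where RPM is a gene's reads scaled to a fixed library total. Of 12 markers of microglia and macrophages, Ptprc, C1qa, C1qc and Tyrobp had no read in any of the 8 libraries, and 11 were under 50 reads in each library. Csf1r, the remaining microglial marker, had 95 to 230 reads.

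Of the 61 members, 47 had a mean level of at least -2 on the log2 RPM scale over the C57BL/6JBabr libraries and were tested, and 14 were under that filter. The promoters of 8 members are shown because they carry the sequence pattern described beside them or, for the silent Ctss, lack it. TFEB and related factors bind E-box sequences, CACGTG, and the lysosomal form of that box is called the CLEAR element. The sequences are from RefSeq (GRCm38.p6), run 5′ to 3′ over the 250 bases before the annotated transcript start and the 25 bases from it on, and have each TCACGTGA in capitals, or CACGTG where the longer form is not there.
Lamp1, chr8:13158911-13159185, plus strand: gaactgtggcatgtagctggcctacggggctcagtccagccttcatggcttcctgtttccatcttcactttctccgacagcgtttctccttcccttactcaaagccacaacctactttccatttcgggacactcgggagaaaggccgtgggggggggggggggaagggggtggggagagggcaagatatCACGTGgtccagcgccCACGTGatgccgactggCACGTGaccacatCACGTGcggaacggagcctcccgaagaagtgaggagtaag
Ctsd, chr7:142387803-142388077, minus strand: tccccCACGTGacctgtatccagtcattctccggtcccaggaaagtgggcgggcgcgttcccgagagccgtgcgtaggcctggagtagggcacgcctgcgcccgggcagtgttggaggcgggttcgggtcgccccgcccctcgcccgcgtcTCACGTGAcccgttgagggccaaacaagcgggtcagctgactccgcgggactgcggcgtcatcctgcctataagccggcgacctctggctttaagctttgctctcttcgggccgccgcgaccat
Ctsa, chr2:164833523-164833797, plus strand: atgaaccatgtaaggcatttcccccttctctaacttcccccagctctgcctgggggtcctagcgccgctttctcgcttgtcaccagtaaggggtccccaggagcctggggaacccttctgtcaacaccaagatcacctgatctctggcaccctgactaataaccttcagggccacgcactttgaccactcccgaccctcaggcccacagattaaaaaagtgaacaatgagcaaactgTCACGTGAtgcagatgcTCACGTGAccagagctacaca
Atp6v0d1, chr8:105566040-105566314, minus strand: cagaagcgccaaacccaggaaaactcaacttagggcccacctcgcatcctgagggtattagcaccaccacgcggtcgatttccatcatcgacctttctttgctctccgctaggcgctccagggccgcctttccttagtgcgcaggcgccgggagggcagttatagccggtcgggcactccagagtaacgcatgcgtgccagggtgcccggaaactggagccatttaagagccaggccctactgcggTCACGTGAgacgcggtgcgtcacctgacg
Atp6v0e, chr17:26676146-26676420, plus strand: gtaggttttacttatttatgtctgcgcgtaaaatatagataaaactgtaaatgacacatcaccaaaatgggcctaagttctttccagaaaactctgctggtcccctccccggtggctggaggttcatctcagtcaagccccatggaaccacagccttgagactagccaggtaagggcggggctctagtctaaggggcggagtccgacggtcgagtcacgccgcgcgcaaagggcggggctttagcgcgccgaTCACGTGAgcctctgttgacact
Atp6v1a, chr16:44139235-44139509, minus strand: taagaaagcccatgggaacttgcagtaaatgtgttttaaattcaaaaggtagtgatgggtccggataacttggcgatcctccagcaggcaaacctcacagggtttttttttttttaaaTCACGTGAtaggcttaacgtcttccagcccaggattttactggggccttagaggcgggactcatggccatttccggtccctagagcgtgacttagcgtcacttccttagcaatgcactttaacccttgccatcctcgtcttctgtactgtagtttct
Atg3, chr16:45158579-45158853, plus strand: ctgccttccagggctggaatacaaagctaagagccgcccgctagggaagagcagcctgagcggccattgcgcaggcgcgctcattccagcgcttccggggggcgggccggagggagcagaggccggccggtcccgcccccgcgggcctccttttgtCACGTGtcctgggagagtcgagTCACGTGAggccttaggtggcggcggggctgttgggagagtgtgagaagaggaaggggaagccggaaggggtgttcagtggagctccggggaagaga
Ctss, chr3:95526536-95526810, plus strand: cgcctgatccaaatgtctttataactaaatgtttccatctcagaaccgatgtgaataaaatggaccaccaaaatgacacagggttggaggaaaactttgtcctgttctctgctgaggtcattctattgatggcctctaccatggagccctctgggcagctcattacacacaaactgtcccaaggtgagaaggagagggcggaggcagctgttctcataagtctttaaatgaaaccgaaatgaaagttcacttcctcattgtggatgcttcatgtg

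The promoter table matched 49 of the 61 members with 57 promoters. Over windows of 300 bases, from 250 before to 50 after the start, CACGTG stood in 13 of the 57 member promoters (22.8%), against 7.15% of the 32851 promoters in the table. CACGTG reads the same on both strands, and so do 2 longer forms that contain it, TCACGTGA and the 10-base CLEAR element, which adds a base at either end of TCACGTGA. TCACGTGA was in 6 member promoters (10.5%), against 0.974% of all promoters. Those 6 belong to Ctsa and Ctsd, to the V-ATPase subunits Atp6v0d1, Atp6v0e and Atp6v1a, and to Atg3. The 10-base CLEAR element was in 0 of the 57, against 0.326% of all promoters. Lamp1 held 4 copies of CACGTG within 61 bases before its start. The other promoters with CACGTG were those of Atg5, Atg7, Atg14, Atp6v0b, Ctsf and Ctsl. All 13 genes with CACGTG were among the tested members, and 0 of the 11 matched members under the filter held it. The 2 sets also differed in base composition, with a median of 18 CG dinucleotides per promoter in the tested members, 3 in those under the filter and 7 over all genes, and each of the 3 words contains a CG. A match of letters is a description, and its relation to expression was not tested.

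Ctsd and Ctsb, the main aspartic and cysteine proteases of the lysosome, and Lamp1, the abundant glycoprotein of its limiting membrane, had the highest levels. Genes were compared per kilobase of exon, as log2 RPM per kilobase averaged over the 6 C57BL/6JBabr libraries, and on that scale Ctsd was at 7.72, Lamp1 at 7.07 and Ctsb at 6.01. Next on the per kilobase scale were the V-ATPase subunits Atp6v0e2 at 5.74, Atp6v1g1 at 5.70 and Atp6v0c, the proteolipid of the proton-conducting ring, at 5.57. Sqstm1, the p62 receptor that links ubiquitinated cargo to the autophagosome, was at 5.21 per kilobase.

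**Figure D1:**
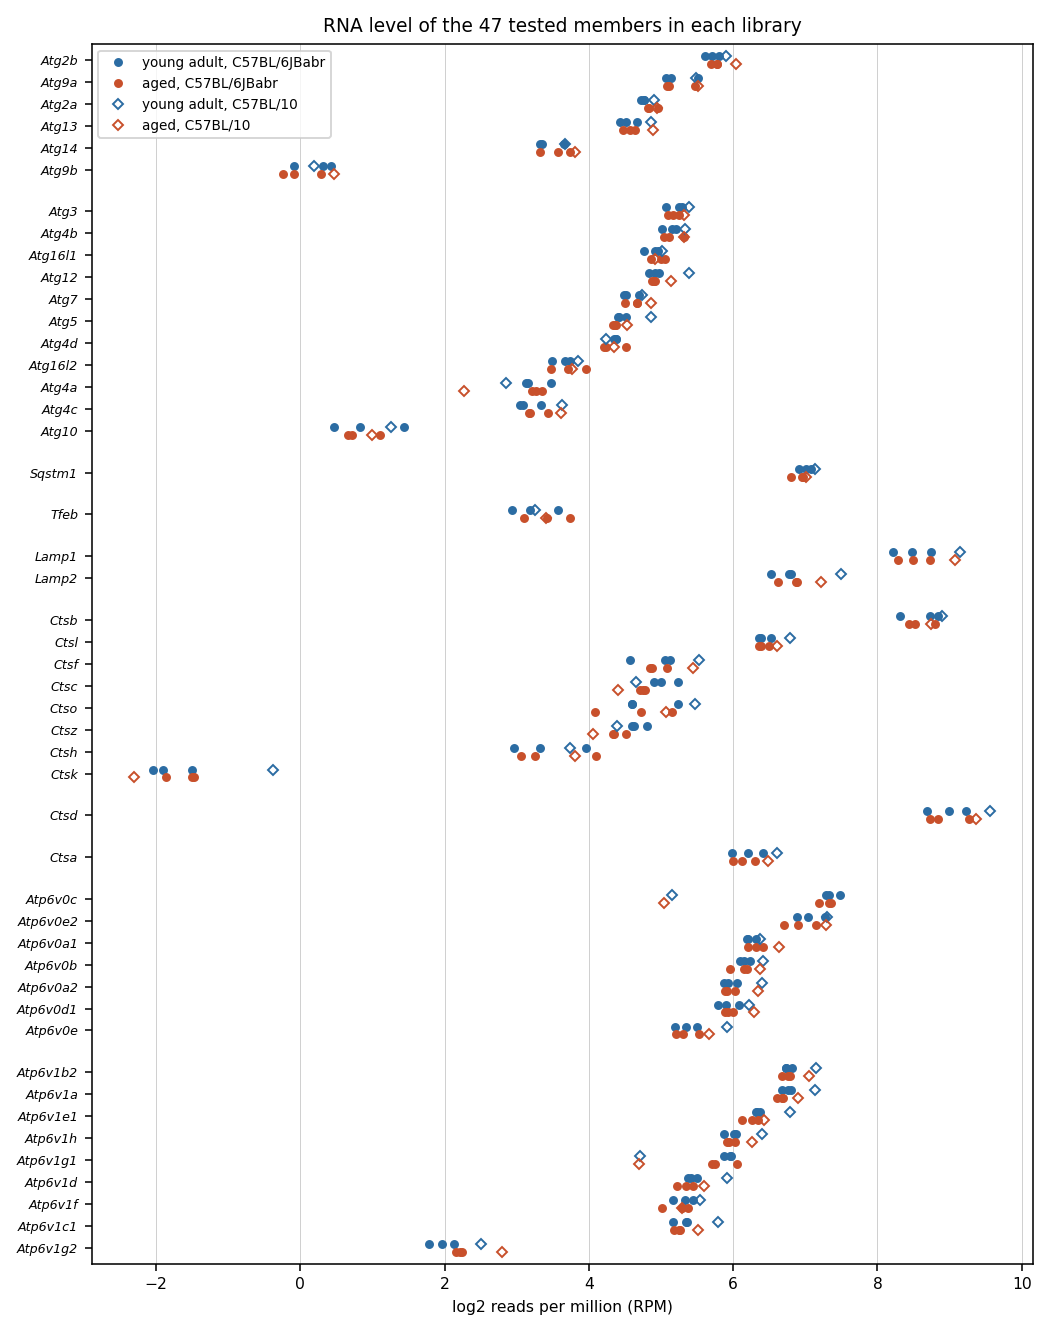
Level of each of the 47 tested members on the log2 RPM scale (x axis), 1 row per gene in groups by role, with 3 young adult and 3 aged C57BL/6JBabr libraries as filled circles and the C57BL/10 library of each age as an open diamond. The circles of the 2 ages overlap in 42 of the 47 rows, and the diamonds of Atp6v0c, Atp6v1g1, Atg4a and Ctsc lie below all of their circles.

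The genes that build the autophagosome were given in 2 groups on this scale, without a test. The 6 members for initiation and lipid transfer had a median of 1.92 log2 RPM per kilobase and ranged from -1.88 to 2.71, and the 11 members of the conjugation systems, which attach LC3-family proteins to membrane, had a median of 1.79 and ranged from 0.09 to 3.53. Among the former the lipid scramblase Atg9a was at 2.71 and its paralog Atg9b at -1.88, with 16 to 51 reads per library. Among the latter Atg10, the E2-like enzyme of the ATG12 system, was lowest with 30 to 85 reads. Atg3, the E2-like enzyme for the LC3 family, was highest at 3.53, above Ctsc at 2.36. Atg5, the acceptor of ATG12, was at 3.17, Atg7, the E1-like enzyme, at 1.79, and Atg16l1, the partner that places the conjugate on the membrane, at 1.66. Tfeb was at 0.82. The 7 tested members of the membrane sector V0 had a median of 5.09 and the 9 of the cytosolic sector V1 a median of 4.11. The 8 tested cysteine cathepsins spread widest, from -2.31 for Ctsk to 6.01 for Ctsb with a median of 2.48. All levels given from here on are log2 RPM without the division by length, and serve to compare libraries within a gene.

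The 14 members under the filter were near silent. Ctse, Ctsg, Ctsj, Ctsm, Ctsq, Ctsr, Ctss and Atp6v1g3 had no read in any of the 8 libraries. A count of 0 allows up to 3 reads, or 0.0731 to 0.177 RPM depending on the library, for counting error only. Ctss is the cathepsin of antigen-presenting cells and Ctsg that of neutrophils, and several of the others are known from placenta or stomach. Atp6v1b1 had 2 reads in all, and Ctsw, Atp6v1c2 and Atp6v1e2 stayed at or under 12 reads in each library. Atp6v0d2, a V0 subunit known from osteoclasts, had 1, 0 and 13 reads in young adult derivations 1, 2 and 3 and 0, 4 and 23 in the aged ones, so that derivation 3 held most of its reads at both ages. Atp6v0a4, the kidney and inner ear form of the V0 a subunit, had 7, 1 and 1 reads in young adult and 17, 10 and 11 in aged libraries, and its C57BL/10 counts were 10 and 6 in the opposite order. Ctsk, the osteoclast collagenase, passed the filter narrowly, at -1.71 with 6 to 14 reads per C57BL/6JBabr library.

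Whether these genes differ between young adult and aged NSPCs was the first comparison. Of the 47 tested members, 0 were called at an adjusted p under 0.05 by limma, and 0 of all 14858 genes were called (0%). At an unadjusted p under 0.05 there were 2 members, against 258 genes or 1.74% of all. edgeR also called 0 genes, with 254 at an unadjusted p under 0.05, and DESeq2 called 4 genes, with 0 members among them. A fit with the derivation number as a block called 74 genes (0.498%) and 0 members. The study itself reported 254 differentially expressed genes at a false discovery rate under 0.05 by a limma moderated t test. The reason for the difference from the counts here was not tested. Because these are bulk cultures, fewer cells of a type and less RNA per cell cannot be told apart, and the p-values measure the spread between the pooled derivations.

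The 2 members with an unadjusted p under 0.05 were lysosomal exopeptidases, and both were lower in aged cells. Ctsc (cathepsin C, a dipeptidyl peptidase that activates serine proteases; ENSMUSG00000030560, chr7:88278085-88310888) was at 5.00, 4.90 and 5.24 log2 RPM in young adult libraries 1, 2 and 3 and at 4.75, 4.78 and 4.70 in the aged ones. All 3 aged libraries lay below all 3 young adult ones. The difference was -0.30 with a 95% interval of -0.55 to -0.06, and limma gave an adjusted p of 1.00, or 0.239 with the derivation block. Ctsz (cathepsin Z, a carboxypeptidase; ENSMUSG00000016256, chr2:174427493-174439039) was at 4.62, 4.799 and 4.60 in young adult and 4.52, 4.35 and 4.34 in aged libraries. These groups did not overlap either. The difference was -0.27 with an interval of -0.51 to -0.03, and limma gave an adjusted p of 1.00, or 0.315 with the block. In C57BL/10 the aged library was also below the young adult one, by -0.24 for Ctsc and -0.34 for Ctsz on the log2 scale, from 1 library per age. The 12 microglial and macrophage markers summed to 6.05, 6.57 and 7.94 RPM in young adult and 5.56, 6.40 and 6.72 in aged libraries, with genes without a read held at 0.9 reads as in the deposited values. Csf1r made up most of each sum, at 2.39, 2.49 and 2.73 log2 RPM against 2.31, 2.43 and 2.54. P2ry12, the only other one tested, was at -0.97, -1.50 and -0.12 against -2.32, -0.79 and -1.30. The 7 astrocyte markers summed to 1996, 2345 and 2257 RPM in young adult and 1804, 1787 and 1985 in aged libraries, groups that did not overlap either, and to 2541 and 1857 in the young adult and aged C57BL/10 libraries. Of these 7, Gfap and Aldoc had an unadjusted p under 0.05 between ages, both lower in aged cells, and 0 were called. The oligodendrocyte lineage markers summed higher in the aged library of each number, at 1307, 1405 and 1352 RPM against 1169, 1353 and 1227. Neuronal, endothelial and pericyte markers did so too. NSPC markers summed lower in the aged library of each number, and ependymal ones went both ways. The part of these markers in the differences of Ctsc and Ctsz was not tested.

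**Figure D2:**
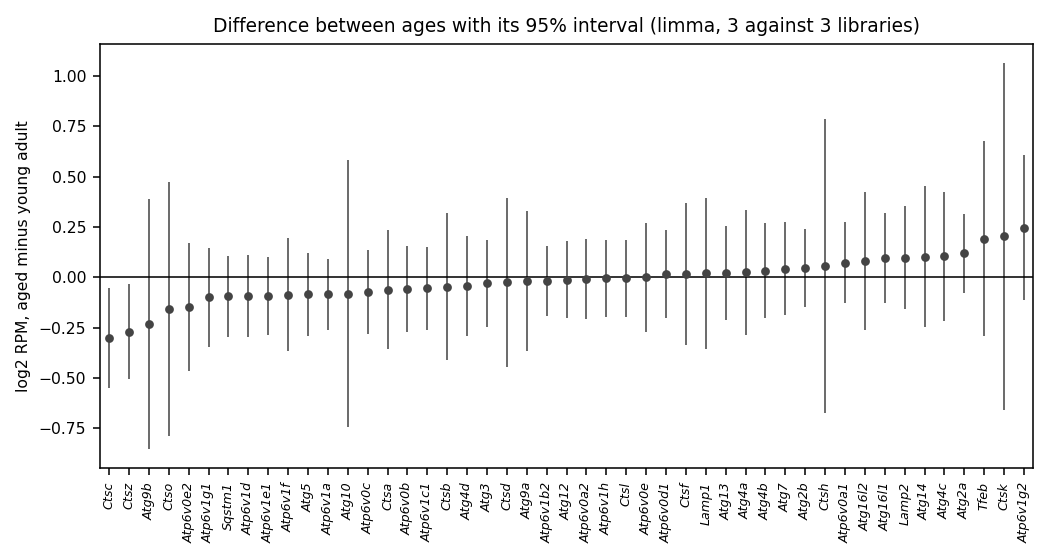
Difference in level between aged and young adult C57BL/6JBabr NSPCs on the log2 RPM scale (y axis) for each of the 47 tested members, ordered by size, with the 95% interval from limma over 3 against 3 libraries as bars. The fit is the one without the derivation block. The points run from -0.30 (Ctsc) to 0.25 (Atp6v1g2), and only the bars of Ctsc and Ctsz stay clear of 0.

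The other members were spread on both sides of 0. Over the 47 tested members the median difference was -0.01, with 19 higher and 28 lower in aged cells, beside a median of 0.00 over all genes. This split rested on single libraries, with 32 higher without aged library 2 and 27 higher without young adult library 3, and 15 higher without young adult library 1 or aged library 3. The differences ran from -0.30 to 0.25, and their 95% intervals reached a median of 0.25 to either side. The interval lay within 1 log2 unit of 0 for 46 members and within 0.5 for 38. These intervals leave out that same-numbered libraries deviate together, as described below. With the derivation number as a block the intervals reached a median of 0.17 to either side, and 43 lay within 0.5 of 0. The aged libraries all lay on one side of the young adult ones for 5 of the 47 members, against 5.2% of all genes. Atp6v1g2 and Atg2a were above and Atg5, Ctsc and Ctsz below.

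Atp6v1g2, the neuronal form of the V1 G subunit, was at 1.79, 1.96 and 2.13 in young adult and 2.24, 2.16 and 2.21 in aged libraries, from 66 to 189 reads each. Its difference was 0.25 with an interval of -0.11 to 0.61, and limma gave an adjusted p of 1.00. Atg2a, a lipid transfer protein of the growing autophagosome, was at 4.76, 4.77 and 4.72 against 4.96, 4.84 and 4.81, a difference of 0.12 (-0.08 to 0.32). Atg5 was at 4.52, 4.42 and 4.40 against 4.34, 4.38 and 4.36, a difference of -0.09. In V1, 8 of 9 members were lower in aged cells with a median of -0.08, the catalytic subunit Atp6v1a at -0.08 among them, and 0 were called. That split was not seen in each derivation. In derivation 1, Atp6v1b2, Atp6v1d, Atp6v1e1, Atp6v1f and Atp6v1g1 were higher in the aged library, while Atp6v1a, Atp6v1c1 and Atp6v1h were lower there too. In V0, 5 of 7 were lower with a median of -0.01. Atp6v0a1 was at 0.07 and Atp6v0c at -0.07. The 11 conjugation members had a median of 0.02, with 6 higher and 5 lower.

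Tfeb, the factor, and Sqstm1, the receptor, had overlapping groups. Tfeb was at 2.93, 3.18 and 3.57 in young adult and 3.42, 3.10 and 3.74 in aged libraries. The difference was 0.19, among the 3 largest positive differences with Atp6v1g2 and Ctsk. Sqstm1 was at 6.91, 7.08 and 7.01 against 6.97, 6.80 and 6.95, a difference of -0.10. Ctsd was at 8.68, 8.998 and 9.23 against 8.83, 8.73 and 9.27, Ctsb at 8.32, 8.73 and 8.83 against 8.52, 8.43 and 8.79, with both sets of 3 overlapping. Lamp1 was at 8.22, 8.48 and 8.74 against 8.28, 8.49 and 8.73, and Lamp2 at 6.80, 6.53 and 6.77 against 6.62, 6.87 and 6.89. Ctsl, another broadly expressed endopeptidase, differed by -0.01. After Ctsc and Ctsz the most negative difference was that of Atg9b (-0.23), at 0.31, -0.08 and 0.42 against -0.23, -0.09 and 0.28, and its groups overlapped. The age effect in C57BL/10 was compared with that in C57BL/6JBabr by an interaction term, which called 1 of 14828 genes (0.00674%) and 0 members. Ctsk had the smallest interaction p among members, with an adjusted p of 1.00 by limma, and its difference of -2.13 rests on 21 reads in the young adult and 5 in the aged C57BL/10 library.

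Other genes of the pathway were not called between ages either. Of 19 further autophagy genes, 12 of the TFEB control system, 36 lysosomal hydrolases and membrane proteins, 7 genes for delivery to the lysosome or protease inhibition and 7 V-ATPase partners, 0 were called in either direction by limma, with or without the block. Ulk2, a kinase that starts autophagy, and Dmxl2, a V-ATPase assembly factor, had an unadjusted p under 0.05. Ulk2 was at 5.55, 5.54 and 5.55 in young adult and 5.66, 5.78 and 5.73 in aged libraries, and Dmxl2 at 4.90, 4.94 and 4.79 against 5.00, 5.17 and 5.14. Neither set of 3 overlapped the other. The list medians ran from -0.05 to 0.03 on the log2 scale.

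Between derivations 8 members differed. Same-numbered libraries of the 2 ages deviated together, so derivation 1, 2 and 3 were tested as a factor across both ages. limma's F-test called 3263 of 14858 genes (22%) and 8 of the 47 members, a share below that of all genes. The 8 were the proteases Ctsh, Ctso, Ctsd and Ctsb, the membrane protein Lamp1, Atg9a, the V0 subunit Atp6v0e2 and Tfeb, with adjusted p from 0.00129 to 0.0499. The last is that of Ctsb, which was not called with TMM scaling or with the filter at 0, where 7 members were called, while edgeR called 9, with Ctsf in addition. All 8 were highest in derivation 3 at both ages, as were 52.7% of all genes called by derivation number. Over all 47 tested members, 18 were highest in derivation 3 at both ages (38.3%), 4 in derivation 1 (8.51%) and 1 in derivation 2 (2.13%). Over all 14858 tested genes these shares were 28.5%, 21% and 8.12%.

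Ctsh, an aminopeptidase, was at 2.97, 3.33 and 3.97 log2 RPM in young adult derivations 1, 2 and 3 and at 3.26, 3.07 and 4.10 in the aged ones. Both libraries of derivation 3 stood above the other 4. Ctso was at 4.60, 4.60 and 5.24 against 4.09, 4.73 and 5.15, and its derivation means spanned 0.85. Lamp1, Ctsd, Atg9a and Tfeb spanned 0.49, 0.49, 0.42 and 0.51 between derivation means. Lamp1 differed by at most 0.06 between ages within a number, while derivation 3 was 0.49 above derivation 1. The numbers only name the derivations. Ctsf and Ctsa fell just outside the threshold, with adjusted p of 0.0550 and 0.0576.

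**Figure D3:**
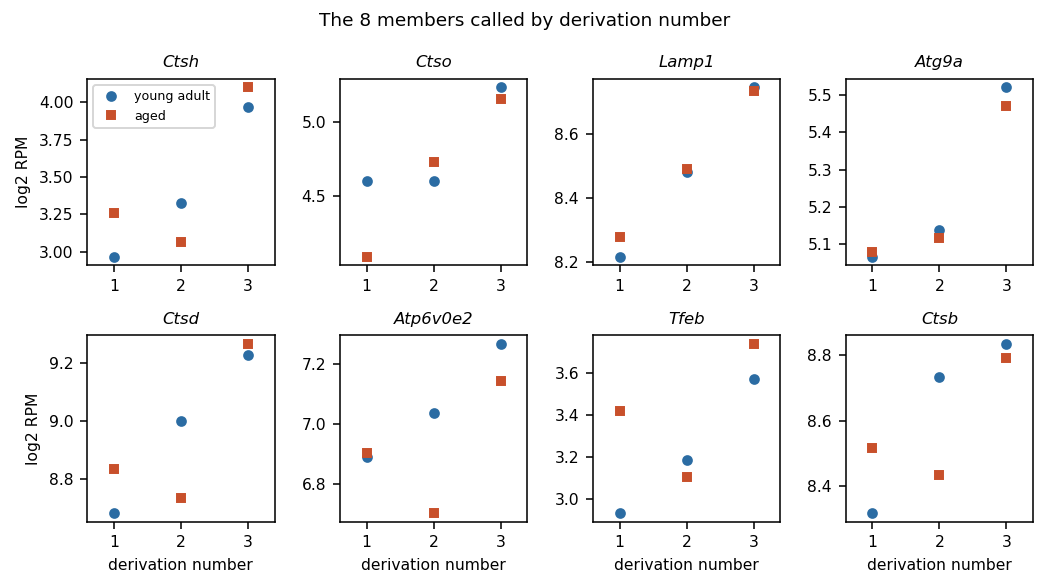
Level on the log2 RPM scale (y axis, scaled to each gene) by derivation number (x axis) for the 8 members called by derivation, with young adult libraries as circles and aged libraries as squares, 1 library per point. In each panel both points of derivation 3 lie above the 4 others.

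Lysosomal genes outside the rule were also called by derivation number. Of 36 hydrolases and lysosomal membrane proteins, 20 were called by derivation number, and 19 of the 20 were highest in derivation 3 at both ages, beside the 52.7% of all called genes. Their summed level was 2203, 2569 and 2954 RPM in young adult derivations 1, 2 and 3 and 2305, 2382 and 2873 in the aged ones. Npc1, the lysosomal cholesterol exporter, was at 6.96, 7.16 and 7.60 against 6.84, 7.17 and 7.47 log2 RPM. Psap, the precursor of the saposins, was at 8.86, 9.21 and 9.38 against 8.94, 9.10 and 9.35. Of the autophagy list 3 of 19 were called (Wipi1, Optn and Vmp1), of the TFEB control list 0 of 12, of delivery and inhibitors 2 of 7 (Gnptab and the cystatin Cst3), and of the V-ATPase partners 3 of 7 (Atp6ap1, Tcirg1 and Wdr7). Over all tested genes 22% were called by derivation number.

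Markers of other cell types moved with the derivations as well. The 3 tested ependymal markers were all called, and the whole list of 4 summed to 31.6, 67.3 and 103 RPM in young adult and 34.7, 54.9 and 95.1 in aged derivations 1, 2 and 3. Foxj1, the defining factor of multiciliated cells, was at 4.92, 5.99 and 6.60 log2 RPM in young adult and 5.08, 5.72 and 6.51 in aged libraries, while Tmem212, also on that list, was at 1 read or fewer. The NSPC markers, 4 of 8 called, ran the other way in sum, at 8056, 7390 and 6750 against 7701, 6389 and 6218 RPM. Of 7 astrocyte markers 3 were called (Aqp4, Gja1 and Slc1a3), each highest in derivation 3 at both ages. Of 8 oligodendrocyte lineage markers 5 were called, with 3 highest in derivation 2 and 1 in derivation 1 at both ages. Among those 5, Cspg4 is also on the pericyte list, whose other tested marker was not called. Of 4 neuronal, 2 microglial and 2 endothelial markers 0 were called. The part of all these markers in the lysosomal levels was not tested.

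The C57BL/10 libraries differed from the C57BL/6JBabr ones in several members, but strain, facility, derivation and the small number of libraries cannot be told apart here. On RPM, limma called 4405 of 14828 genes (29.7%) and 26 of the 47 members, 21 higher (18.2% of all genes were called in that direction) and 5 lower (11.5%). That direction depends on the scaling. The median over all genes was 0.17 log2 units above 0 on RPM and 0.01 after TMM scaling, which removes such a shift, and the member medians were 0.28 and 0.12. After TMM scaling 2615 genes were called (17.6%) and 7 members, of which 2 were higher (4.43%) and 5 lower (13.2%). The 2 scalings gave the same direction for those 7, and the other 19 calls were made on RPM only. These fits leave out that same-numbered C57BL/6JBabr libraries deviate together. With the derivation number as a random replicate block, an alternative chosen after the data were seen, limma called 8 members on RPM (16.2% of all genes) when the C57BL/10 libraries were taken as 1 derivation and 19 (25.2%) when taken as 2. After TMM scaling the fits with the block called 5 (12.7%) and 6 (15.9%), the same 5 lower genes in both and, with 2 derivations, Lamp1, which the TMM fit without the block did not call (adjusted p = 0.0371 against 0.0591 by limma). Atp6v0c and Atp6v1g1 were called in all 4 of these fits.

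Atp6v0c (ENSMUSG00000024121, chr17:24163866-24169702) had the largest difference. It was between 7.19 and 7.48 log2 RPM in the 6 C57BL/6JBabr libraries and at 5.15 and 5.04 in the young adult and aged C57BL/10 libraries. The difference was -2.23 on RPM and -2.39 after TMM scaling, with adjusted p of 1.58e-08 and 4.69e-09 by limma. Atp6v1g1 (chr4:63544772-63550750), a stalk subunit of V1, was between 5.70 and 6.05 against 4.70 and 4.70, a difference of -1.18, or -1.34 after TMM scaling. Atg4a (chrX:140956907-141164270), a protease that processes LC3-family proteins, was between 3.12 and 3.47 against 2.86 and 2.28, a difference of -0.70, or -0.86 after TMM scaling. In all 3 genes both C57BL/10 libraries lay below all 6 others, as they also did for Ctsc, described below. Atg4a was called in 3 of the 4 fits with the block, and had an adjusted p of 0.0636 by limma on RPM with the C57BL/10 libraries as 1 derivation.

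These 3 genes also share sequence with other places in the genome. Of the 50-base stretches along their annotated transcripts, the share with an exact copy elsewhere in GRCm38 was 57.6% for Atp6v1g1, 51.2% for Atg4a and 28.1% for Atp6v0c. The median over the 61 members was 0.191%, 29 members were at 0 and 4 were over 10%. The fourth, Atp6v1f at 18.0%, differed by -0.01 after TMM scaling and was not called. Of the genes of the 5 other pathway lists, 6 tested ones were over 10%, and after TMM scaling 5 of the 6 were lower in C57BL/10 and 1 higher, with 4 called. The LC3-family gene Gabarapl2, with 35.4% of stretches copied, differed by -1.40 on RPM and -1.56 after TMM scaling. Gnptg, a subunit of the enzyme that tags hydrolases for delivery to the lysosome, had the larger share, 38.3%, and went the other way, at 0.37 on RPM and 0.21 after TMM scaling (adjusted p = 0.0214 and 0.177 by limma). This measure was computed after the values were seen. The sources used here do not give how long the RNA reads were or how reads with several matches were treated, and values of near-identical genes are therefore uncertain. The part of copies in these differences was not tested.

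**Figure D4:**
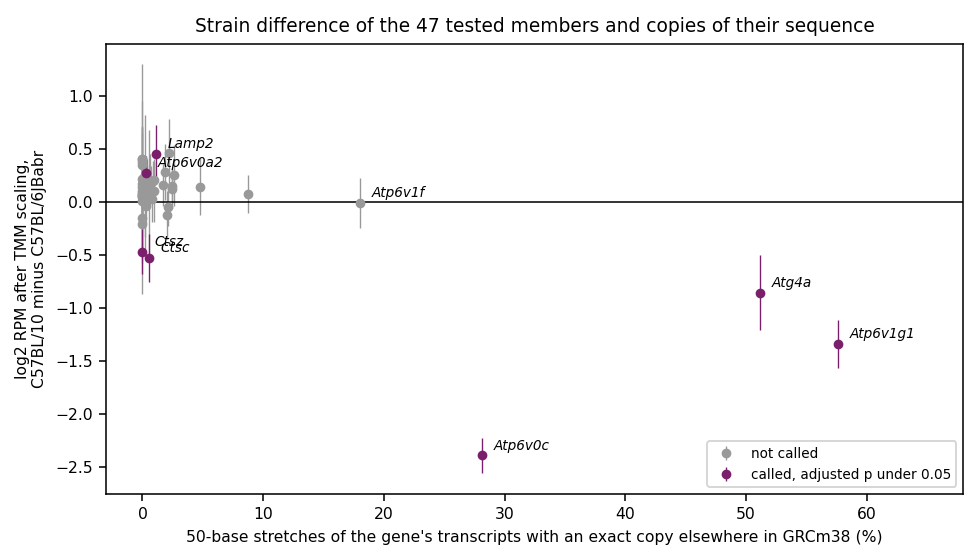
Difference between C57BL/10 and C57BL/6JBabr in log2 RPM after TMM scaling (y axis, with 95% intervals from limma over 2 against 6 libraries) against the share of a gene's 50-base transcript stretches with an exact copy elsewhere in GRCm38 (x axis, percent). The 3 most negative points, Atp6v0c, Atp6v1g1 and Atg4a, are at 28.1, 57.6 and 51.2%, and Atp6v1f is at 18.0% with a difference near 0.

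The remaining calls that held under both scalings were 2 lower and 2 higher genes with few copied stretches. Ctsc and Ctsz, described above for age, were at 4.65 and 4.41 and at 4.40 and 4.06 in the young adult and aged C57BL/10 libraries, and the strain difference was -0.53 and -0.47 after TMM scaling, with adjusted p of 0.00441 and 0.00697 by limma. Atp6v0a2 was between 5.87 and 6.05 against 6.41 and 6.35, a difference of 0.43 on RPM and 0.27 after TMM scaling. Lamp2, a lysosomal membrane protein with an isoform that acts in chaperone-mediated autophagy, was between 6.53 and 6.89 against 7.496 and 7.22, with 0.61 and 0.45. Its neighbour in the membrane Lamp1 was between 8.22 and 8.74 against 9.15 and 9.07. That was a difference of 0.62 on RPM (adjusted p = 0.0154) and 0.46 after TMM scaling (adjusted p = 0.0591), so the second scaling did not call it. With the block, Atp6v0a2 and Lamp2 were called by limma on RPM but had adjusted p of 0.0511 to 0.168 after TMM scaling, and Ctsc and Ctsz were called after TMM scaling but had 0.0542 to 0.146 on RPM.

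In V1, the subunits Atp6v1a and Atp6v1b2, which form the ATP-hydrolysing ring, and the regulatory subunit Atp6v1h were called on RPM, at 0.31, 0.35 and 0.37, and were at 0.15, 0.19 and 0.20 after TMM scaling with adjusted p of 0.0892 to 0.212. Over the 81 tested genes of the 5 other pathway lists, 29 were called higher and 2 lower on RPM, beside 18.2% and 11.5% of all genes. After TMM scaling 6 were called higher and 4 lower, beside 4.43% and 13.2% of all genes. The count of members on RPM rested on single libraries. Without the young adult C57BL/10 library it was 3, beside 1446 of 14850 genes in all (9.74%), and without the aged one 8, beside 1882 of 14835 (12.7%). Of 33 tested cell type markers 4 were called on RPM by limma, a share of 12.1% against the 29.7% of all genes. Gfap was at -0.70 (adjusted p = 0.0100), Aldoc at -0.97 (adjusted p = 0.00348), Gja1 at 0.96 (adjusted p = 0.00152) and Mbp, of the oligodendrocyte lineage, at -3.27 (adjusted p = 0.00558). Their part in the member differences was not tested.

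Promoter chromatin of the members was read beside their expression. In windows of 5 kb centred on a transcript start, a mark was taken as present above 1 on the log2 RPM scale in both ages, and the window with the highest H3K4me3 was used for each gene. H3K4me3, which marks active promoters, was present in 46 of the 47 tested members and in 1 of the 14 under the filter. Over all genes with a window the same split was seen, with H3K4me3 in 89.3% of 14798 genes that passed the RNA filter and in 23.1% of 11031 under it. H3K27me3, the mark of Polycomb repression, was present without H3K4me3 in 6 members, all under the filter (Atp6v0a4, Atp6v1b1, Atp6v1g3, Ctse, Ctsg and Ctss), against 29.1% of all genes under it. The windows chosen for Atp6v0a4 and Ctse are centred on internal starts. At the 5′ end of Atp6v0a4 H3K27me3 was 0.40 and -0.13 in young adult and aged cells, under the limit. At the 5′ end of Ctse it was 2.25 and 1.98. Ctsk, the one tested member without H3K4me3, had neither mark, at -0.62 and -0.77 for H3K4me3 in young adult and aged cells.

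Both marks were present in the chosen window of 4 members, 3 of them tested, against 18.8% of all genes that passed the filter. Atg9b is not among them, but the window of another of its starts held both. That window had 3.68 and 3.77 for H3K4me3 and 2.48 and 2.54 for H3K27me3 in young adult and aged cells. Atp6v1c2 had 4.22 and 4.29 for H3K4me3 and 4.46 and 4.53 for H3K27me3 in young adult and aged cells, with 0 to 5 reads of RNA per library. The window chosen for Atp6v1c2 is centred on an internal start. At the 5′ end of that gene H3K4me3 was 0.47 and 0.04, under the limit, and H3K27me3 was 3.45 and 3.56. Atg7, Ctsb and Ctsh carried H3K4me3 between 4.49 and 5.81 and H3K27me3 between 1.15 and 1.79, and were expressed. The Input track stood near these H3K27me3 values in Ctsh, at 0.99 and 0.75 in young adult and aged cells against 1.15 and 1.43, and in Ctsb, at 1.30 and 1.01 against 1.68 and 1.40. It was at 0.71 and 0.52 in Atg7, against 1.79 and 1.68, and at 1.30 and 1.28 in Atp6v1c2. The limit of 1 thus lies within the range of Input, and a mark close above it is weakly separated from background. Among the members with H3K27me3 alone this holds for Ctsg, at 1.34 and 1.29 against an Input of 0.91 and 0.96, and for Ctss, at 1.49 and 1.40 against 0.66 and 0.99. A bulk window of this width cannot say whether both marks lie on one allele or in one cell. Neither mark was present in the chosen window of Atp6v0d2, Atp6v1e2, Ctsj, Ctsm, Ctsq, Ctsr and Ctsw. The Atp6v0d2 window is centred on an internal start. At the 5′ end of that gene H3K27me3 was 1.15 and 1.12 in young adult and aged cells, against an Input of 1.01 and 0.87.

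**Figure D5:**
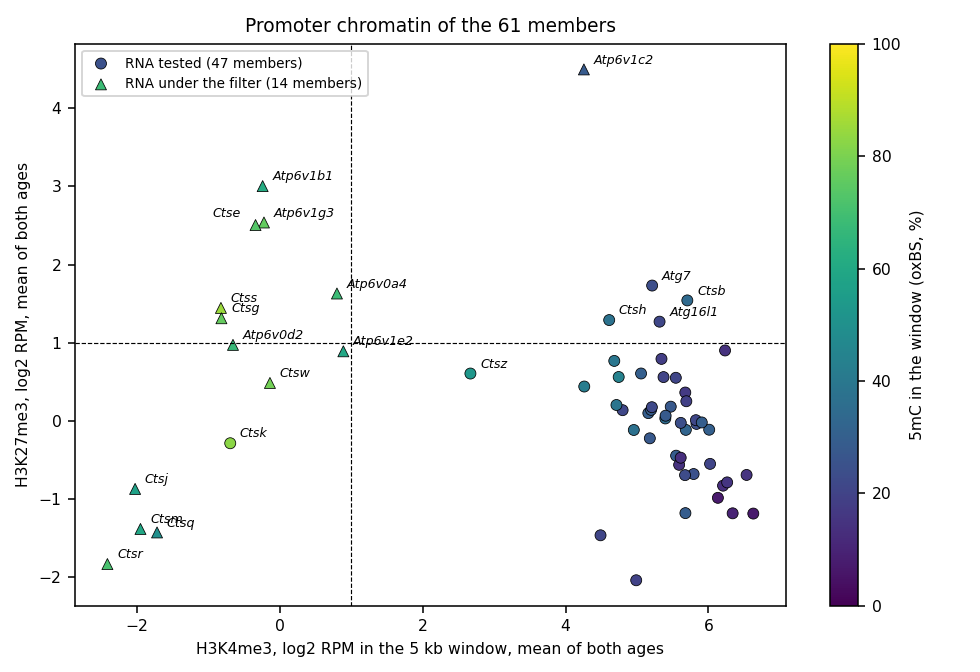
H3K4me3 (x axis) and H3K27me3 (y axis) in the 5 kb window of each of the 61 members, as log2 RPM averaged over both ages, with circles for the 47 tested members, triangles for the 14 under the RNA filter, colour for 5mC from oxBS in percent, and dashed lines at 1. Circles lie on the right except Ctsk, triangles on the left except Atp6v1c2, and most of the left-hand points carry more 5mC than most of the right-hand ones.

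Between ages the histone windows of the members moved little, with 1 value per age and so no test. H3K4me3 changed by 1.5-fold or more in 55 of 25888 gene windows (0.212%) and in 0 member windows. Over windows above 1 the median shift was 0.21 over all genes and 0.22 over the members, a general offset between the 2 tracks. H3K27me3 changed in 389 windows (1.5%), 203 of them lower in aged cells (0.784%), and in 1 member. That was Atg16l1 (chr1:87755870-87792428), at 1.62 in young adult and 0.92 in aged cells, while its H3K4me3 was 5.18 and 5.45 and its RNA differed by 0.09. The Atg16l1 change was not counted at 2-fold. With the Input track subtracted the window was at 0.87 in young adult and -0.08 in aged cells. It was then not counted because neither age was above 1, and not because the change was smaller.

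Over the 47 tested members the median 5mC in the 5 kb window was 24.0% and in the inner 1 kb 1.13%. Over the 14 members under the filter it was 67.6% and 62.0%. Over all genes these medians were 24.2% and 1.42% for those that passed and 69.4% and 68.3% for those under it. Of the tested members, 2 exceeded 50% in the 5 kb window, Ctsk at 82.6% and Ctsz at 53.0%, the latter with 5.94% in the inner 1 kb. Of those under the filter 12 exceeded it, and the 2 that did not were Atp6v1c2 at 28.4% and Ctsq at 49.7%. Ctss had 85.2% and Ctsd 24.0%. The inner 1 kb was at 75.4% in Atg9b and at 90.7% in Atp6v0b, whose window is centred on an internal start.

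Between ages, 0 of 60 tested member windows were called (adjusted p under 0.05 and a difference of 10 percentage points or more, quasi-binomial model moderated with limma), and 0 of 23797 windows in all (0%). Ctsr was not tested, with 6 calls in its thinnest library. At an unadjusted p under 0.05 there were 7 members, against 1294 windows (5.44%). The 7 were Atg9a (-12.1 points), Ctsc (-16.6) and Ctsf (-16.0), lower in aged cells, and Atp6v0a1 (12.9), Atp6v0b (11.6), Atp6v0e2 (12.4) and Lamp1 (10.5), higher. Their adjusted p was 0.912 to 0.915.

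Ctsc was at 43.5, 60.2 and 33.3% in young adult and 29.9, 27.96 and 41.2% in aged oxBS libraries, from 34 to 93 calls each, and the groups overlapped. In the BS libraries it stood the other way, at 30.8, 31.96 and 27.1% against 42.7, 47.2 and 42.3%, from 53 to 131 calls. In BS the groups did not overlap, and the difference was 13.4 points with an adjusted p of 1.00 in the limma-moderated model. The young adult BS values thus lay below the oxBS values, although BS reads 5-hydroxymethylcytosine in addition. In Atp6v0a1 1 aged library stood apart, at 20.2, 21.4 and 17.1% against 18.0, 49.6 and 25%. The other 6 had unadjusted p over 0.1 in BS.

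Summed over all member windows, 5mC was 29.83, 26.40 and 28.41% in young adult and 28.97, 28.58 and 29.19% in aged oxBS libraries, from 3950 to 6844 calls per library. The means were 28.2% ± 1.72 and 28.9% ± 0.308 (SD, n = 3 each). The groups overlapped, and the difference of 0.697 points gave p = 0.7 in a two-sided exact permutation test, in which 3 against 3 libraries cannot go below 0.1. Over all gene windows the difference was 0.655 points.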

How the data were processed

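RNA, histone and methylation files were used. For RNA, the authors deposited log2 RPM per gene and library, scaled to the mapped reads, and whole reads were recovered from the steps of these values (100% of values whole within 0.02 reads, a gene without a read being held at 0.9 reads). For chromatin, the deposited log2 RPM values cover 5 kb windows centred on transcript starts for both histone marks and for Input, 1 value per age with replicates pooled. For DNA methylation, the deposited counts of methylated and unmethylated calls per site of each library were summed over the same windows. Bismark 0.12.5, Bowtie2 2.2.5, STAR 2.3.0 and Trim Galore 0.3.7 and 0.4 on GRCm38 are named in the submitters' processing notes without their roles, and the sources used here do not give the RNA read length.

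Genes with a mean of at least -2 log2 RPM were tested with limma 3.58.1 in R 4.3.3 (moderated test with a mean-variance trend, two-sided, Benjamini-Hochberg adjustment over all genes), for age in 3 against 3 C57BL/6JBabr libraries, for derivation number with age as covariate, and for strain and the age by strain interaction over 8 libraries. edgeR 4.0.16 (quasi-likelihood) and DESeq2 1.42.0 on the recovered reads, TMM scaling, a filter at 0 and leaving out libraries were alternatives, and a random replicate block for strain (duplicateCorrelation) was added after the data were seen. Same-numbered libraries of the 2 ages deviated together (correlations of 0.730, 0.201 and 0.830 over 13280 genes), so the numbers pair them, and the median residual SD fell from 0.173 to 0.108 with the number as a block. The pairing comes from the data; the labels give only the numbers.

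A histone window counted as changed at 1.5-fold and log2 RPM above 1 in an age. Methylation windows reaching 10 calls in each library were tested with a quasi-binomial model whose dispersion was moderated with limma, alternatively with 20 calls or 1 kb windows. Copied sequence was the share of 50-base stretches of GENCODE M21 transcripts found exactly elsewhere in GRCm38. The limma fits for age, derivation and strain and the methylation model were tested on simulated data. The age fit found 100% of 2-fold and 85% of 1.5-fold changes, with 18 false calls each. That simulation had a set spread and no derivation effect, unlike these data. The methylation model found 96% of changes of 30 points. It found 59% when calls within a library were correlated at 0.02, so its count of 0 does not exclude such changes. Floors cover counting error only, and the limma intervals cover the spread between libraries.

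The members and gene lists were chosen with earlier results of these data known. Named were a fixed set of 18 genes, members past a threshold, members with an unadjusted p under 0.05 or non-overlapping groups between ages, the highest and lowest member of each class, the 3 most positive and most negative differences, and members that stood out in chromatin. Atg101 is not analysed here, and the promoters of Atg12, Atg16l1, Atp6v0a2, Atp6v0d2, Atp6v1b2, Atp6v1c1, Atp6v1g1, Atp6v1h, Ctsb, Ctse, Ctsh and Ctsw were not matched.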

Additional observations from a re-analysis of the deposited data

How the results depend on the processing

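No member was called between ages in any alternative run: TMM scaling, the filter at 0, edgeR, DESeq2, the derivation block or without each library. The replicate block moved the count over all genes from 0 to 74, left the members at 0, and changed no other age call. For the summed methylation, an exact permutation test over the 3 pairs gave p = 0.75 and cannot go below 0.25. The number of members with non-overlapping ages was 3 after TMM scaling (5.16% of all genes) and 5 to 12 without single libraries (9.40 to 18.5%), with 12 without aged derivation 1 (15.6%). The count between strains was 7 after TMM scaling, 7 with edgeR (2592 genes in all), and 3 to 28 without single libraries, with 3 without the young adult (1446 genes) and 8 without the aged C57BL/10 library (1882). With the random replicate block, added after the data were seen, it was 8 and 19 on RPM with C57BL/10 as 1 and 2 levels, and 5 and 6 after TMM scaling. Members with a changed H3K27me3 window were 2 over every transcript window (Atg16l1 and Atp6v0a4), 0 with Input subtracted and 0 at 2-fold. With Input subtracted, Atg16l1 was under the level limit of 1 in both ages. The summed methylation difference ran from -0.209 to 1.504 points without single libraries, reversed without young adult library 2. Apart from that level limit for Atg16l1, the cause of these changes was not tested.

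Of 35 named members tested between ages, 0 changed direction under the other settings, and 16 did without a single library. Their log2 differences then ran from -0.301 to 0.184 for Atg10, -0.052 to 0.022 for Atg12, -0.0052 to 0.090 for Atg2b, -0.095 to 0.011 for Atg3, -0.039 to 0.136 for Atg4a, -0.143 to 0.119 for Atg9a, -0.052 to 0.042 for Atp6v0a2, -0.040 to 0.013 for Atp6v1b2, -0.057 to 0.027 for Atp6v1h, -0.170 to 0.045 for Ctsa, -0.204 to 0.056 for Ctsb, -0.186 to 0.105 for Ctsd, -0.257 to 0.328 for Ctsh, -0.045 to 0.044 for Ctsl, -0.407 to 0.128 for Ctso and -0.112 to 0.152 for Lamp1. Depth limits Ctsk, Atg9b and Atg10 in RNA and windows with few calls in methylation.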
